A study of Mus musculus with 42 samples.

Results

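Variable LAD bins are stretches of the mouse autosomes that lay in a lamina-associated domain (LAD) in some liver libraries and not in others. Chromosomes 1 to 19 of mm10 were tiled in bins of 100 kb from position 0, and a bin was counted in a LAD of a library when the LADs of that library covered at least 50 kb of it. Bins in a LAD in 2 to 8 of the 14 libraries were taken as variable LAD bins. Of 24639 bins, 3156 met the rule, which is 12.8% of the bins and 315.6 Mb. Another 15670 bins were in a LAD of no library, 1154 in 1 library, 3160 in 9 to 13 libraries and 1499 in all 14. Bins in 9 or more libraries are called stable below.

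The nuclear lamina is a meshwork of lamins under the inner nuclear membrane, and LADs are the long chromatin domains that touch it. LADs are mostly gene-poor, AT-rich and transcriptionally silent. Some LADs are found in nearly every cell type, and others differ between cell types or move on and off the lamina when cells change state.

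LADs had been mapped by ChIP-seq of lamin B1 (LMNB1) in liver of wild-type C57Bl/6 mice kept in cycles of light and dark. NS mice were non-synchronized and were killed on the day before fasting. The other mice were fasted for a day to entrain the circadian clock, refed freely from circadian time (CT) 0, and killed at CT0, CT6, CT12, CT18, CT24 or CT30, where the number is in hours. Each of the 7 time points had 2 libraries, 1 mouse each, named replicate 1 and replicate 2 as in the labels, and no ages are given. The source label calls the mice female, and the growth label calls them male. Whole liver pieces were used, so that a LAD in few cells and a weaker lamina contact in many cells cannot be told apart. No expression was used here, and the labelled tissue was therefore not checked by its markers.

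Besides the time point, 2 properties of the libraries entered the comparisons. The names of the deposited libraries carry a number, 1 for 6 libraries, 2 for 5 and 3 for 3, whose meaning is not given. It is called the file number, and no 2 libraries of 1 time point share it. LAD starts also lie on a grid whose step differs between libraries, from 4 kb in NS replicate 2 and CT0 replicate 2 to 61 kb in NS replicate 1. The step was computed per library as the greatest common divisor, in kb, of those starts that fall on whole kb. The LAD caller works in genome windows whose size was set for each library, and neither the step nor the file number is a label of the study. Read depth is unknown, since the files give only where each LAD starts and ends.

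The promoters of 5 genes within the longest runs of variable LAD bins are printed to show how far the sequences at start sites of these regions differ. Each is the 150 bases before the RefSeq start site, 5′ to 3′ on the strand of the gene (GRCm38.p6), with every CG dinucleotide in capitals. CG, the site of DNA methylation in mammals, reads the same on both strands.
4930544G11Rik: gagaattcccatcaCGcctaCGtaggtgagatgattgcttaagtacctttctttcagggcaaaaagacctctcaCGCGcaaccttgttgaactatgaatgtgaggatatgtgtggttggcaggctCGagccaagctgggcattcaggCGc
Cep126: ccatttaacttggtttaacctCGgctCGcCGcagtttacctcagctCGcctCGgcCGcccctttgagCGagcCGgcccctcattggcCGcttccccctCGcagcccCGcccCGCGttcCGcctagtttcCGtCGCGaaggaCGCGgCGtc
Robo2: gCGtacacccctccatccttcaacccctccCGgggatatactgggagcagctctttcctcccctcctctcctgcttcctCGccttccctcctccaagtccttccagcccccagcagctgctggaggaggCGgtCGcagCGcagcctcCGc
Bche: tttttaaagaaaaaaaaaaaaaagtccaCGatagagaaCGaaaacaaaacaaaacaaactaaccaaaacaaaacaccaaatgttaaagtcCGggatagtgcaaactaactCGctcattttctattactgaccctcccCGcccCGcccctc
Ano5: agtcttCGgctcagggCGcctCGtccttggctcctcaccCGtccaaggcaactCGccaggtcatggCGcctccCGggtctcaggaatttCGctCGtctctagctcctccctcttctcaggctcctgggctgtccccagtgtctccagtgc
The Cep126 window (chr9:8134447-8134596, minus strand) held 20 CGs and was 67.3% G and C. The Robo2 window (chr16:74411826-74411975, minus strand) held 7 CGs, and the Ano5 window (chr7:51510879-51511028, plus strand) held 9. Those of Bche (chr3:73708416-73708565, minus strand) and 4930544G11Rik (chr6:65952421-65952570, plus strand) held 6 each. At least 1 CG stood in 91.8% of the 13566 autosomal promoters matched to RefSeq, with a median of 9 (quartiles 3 and 14). Of the 861 matched promoters in variable LAD bins, 77.2% held one, with a median of 2 (quartiles 1 and 8). The bins of these start sites were in a LAD in 4 libraries for 4930544G11Rik, 5 for Cep126, 6 for Robo2, 3 for Bche and 4 for Ano5.

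The LAD calls of all 14 libraries chose the bins, so the number of libraries per bin is a description. It was 2 for 728 bins, 3 for 494, 4 for 420, 5 for 358, 6 for 405, 7 for 350 and 8 for 401, with a median of 4. Just outside the rule, 1154 bins were in 1 library and 527 in 9. Most calls were clear of the coverage threshold. The whole bin was covered in 88.9% of the 14496 cases in which a library held a variable LAD bin, while 170 such values lay from 50 to under 55 kb and 106 from 45 to under 50 kb. Variable LAD bins made up between 6.63% of the bins of chromosome 17 and 17.5% of those of chromosome 7.

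The rule fixes how many libraries hold a bin, but not which. The libraries and time points that held the bins could therefore be compared. NS replicate 1 held 585 variable LAD bins and NS replicate 2 held 820. CT0 replicate 1 held 760 and CT0 replicate 2 held 1197. CT6 replicate 1 held 838 and CT6 replicate 2 held 1225. The ranges of neighbouring time points overlapped among these 6 libraries. CT12 replicate 1 held 1044 bins and CT12 replicate 2 held 1219. CT18 replicate 1 held 1507 and CT18 replicate 2 held 1754, so that both CT18 mice stood above every library from NS to CT12. CT24 replicate 1 held 1706 and CT24 replicate 2 held 839, the widest gap between 2 mice of a time point. CT30 replicate 1 held 646 and CT30 replicate 2 held 356, the lowest number of any library. Over all bins, CT18 replicate 1 had 6182 in a LAD and CT18 replicate 2 had 6525, likewise above every library from NS to CT12 (at most 5827). CT24 replicate 1 had 6318, CT24 replicate 2 had 5182, and the CT30 mice had 3955 and 3879. The fewest were the 3328 of NS replicate 1. Variable bins made up from 9.18% (CT30 replicate 2) to 27.0% (CT24 replicate 1) of the LAD bins of a library.

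The mean number of bins was lowest at CT30, with 501.0 ± 205 (SD, n = 2 at each time point), and 702.5 ± 166 in NS mice. It was 978.5 ± 309 at CT0, 1031.5 ± 274 at CT6, 1131.5 ± 124 at CT12, 1272.5 ± 613 at CT24 and highest at CT18, with 1630.5 ± 175. The difference between time points did not pass the test against the spread between mice. The F ratio was 2.89, with p = 0.106 when compared with all 135135 ways to pair up the libraries (exact permutation), or 0.141 after Benjamini-Hochberg adjustment over the 4 tests of libraries and pairs. Without CT24 replicate 2 the F ratio was 4.62, with an unadjusted exact permutation p of 0.0465. For the time point after the file number, with permutations only within a file number, the F ratio was 2.25 (exact permutation p = 0.221).

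**Figure D1:**
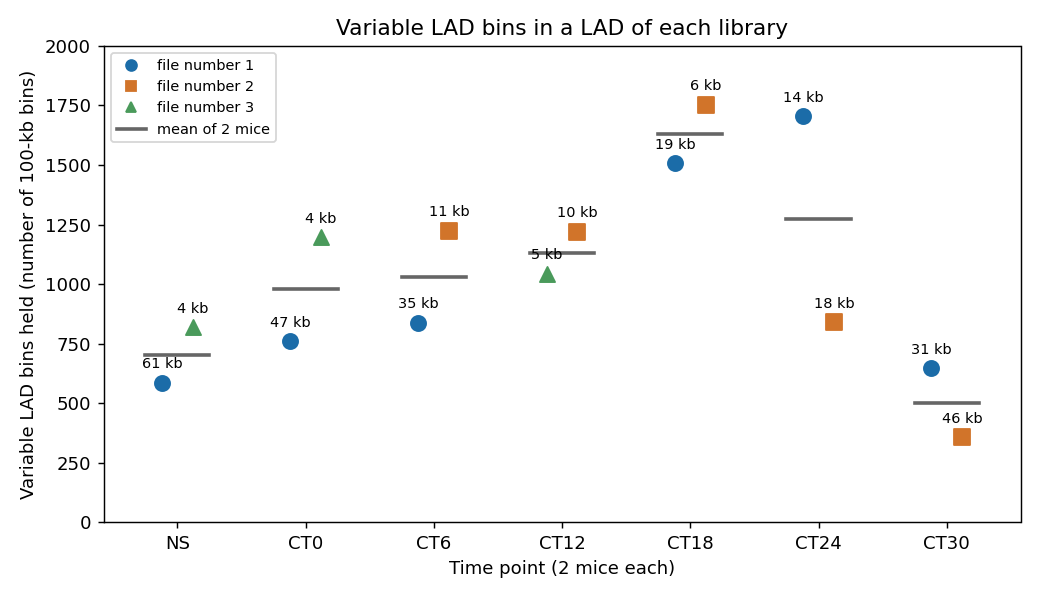
Number of variable LAD bins in a LAD of each library (y axis) by time point (x axis). Each point is 1 mouse, its colour and shape give the file number, the label gives the grid step, and the grey line is the mean of both mice. The CT18 mice held 1507 and 1754 bins, the CT24 mice held 1706 and 839, and the CT30 mice 646 and 356.

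The mice of 1 time point often held different bins. At CT12, 613 variable LAD bins (19.4% of them) were in a LAD in both mice. Their Jaccard index (bins in both over bins in either) was 0.372, the highest of the 7 time points. Over all 24639 bins, 20.2% were in both CT12 mice. At CT18, 747 variable bins were in both mice (Jaccard index 0.297), which was 23.7% of them against 21.0% of all bins. At CT24 597 were (0.306), or 18.9% against 19.3%. At CT6 the number was 426 (0.260), or 13.5% against 17.7%, and at CT30 235 (0.306), or 7.45% against 12.5%. The 2 time points with the widest gap in grid step shared the fewest. At CT0, with grids of 47 and 4 kb, 181 bins were in both mice (0.102), or 5.74% against 13.8%. At NS, with grids of 61 and 4 kb, 46 were (0.0338), or 1.46% against 10.5%. The Jaccard index has another denominator and is not comparable with the shares of all bins. Those shares include the stable bins, so they are a background only and give no test of the variable bins.

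Pairs of mice from the same time point had a mean Jaccard index of 0.240 over the 7 pairs, and the 84 other pairs had 0.203. The difference of 0.0370 was not past the threshold (exact one-sided permutation p = 0.165, adjusted p = 0.165). The call depended on the libraries and on what else was held constant. Without NS replicate 2 the difference was 0.0841 (exact permutation p = 0.0374), without CT0 replicate 2 it was 0.0785 (p = 0.0454), and over CT0 to CT30 alone, with bins chosen anew, it was 0.0702 (p = 0.0480). Against only those other pairs with different file numbers, and with libraries exchanged only within a file number, the difference was 0.0562 (exact permutation p = 0.00926). After the grid steps of both libraries were regressed out of the Jaccard index, an alternative chosen after seeing the data, the difference was 0.0511 (exact permutation p = 0.0315). These values are unadjusted.

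Libraries with the same file number had a mean Jaccard index of 0.241 over 28 pairs, and the 63 other pairs had 0.190. The difference of 0.0512 had an exact one-sided permutation p of 0.0369 over 168168 assignments of the file numbers, and an adjusted p of 0.0738, so it did not pass after adjustment. It was 0.0238 (exact permutation p = 0.0736) after the grid steps were regressed out and 0.0150 (exact permutation p = 0.264) over CT0 to CT30 alone. Leaving out each library in turn moved it between 0.0181 and 0.0636, and the unadjusted exact permutation p stayed below 0.05 in 3 of 14 cases. The difference was lowest without CT12 replicate 1, NS replicate 2 or CT0 replicate 2, at 0.0181, 0.0189 and 0.0242. These are the libraries with file number 3, with grids of 4 to 5 kb, and their Jaccard indices with each other were 0.405 to 0.512 (mean 0.457). The mean was 0.213 among the 6 libraries with file number 1 and 0.218 among the 5 with file number 2. Among the 3 libraries with file number 3, the number and the finest grids cannot be told apart. CT18 replicate 2 has the next finest grid, 6 kb, and file number 2. Its Jaccard index was 0.279 with NS replicate 2, 0.311 with CT0 replicate 2 and 0.265 with CT12 replicate 1. Which of the 2 properties goes with the likeness among the 3 libraries with file number 3 was not tested.

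The likeness of 2 libraries went with the likeness of their grids. Over the 91 pairs, the Jaccard index and the absolute difference in log2 grid step had r = -0.592 (two-sided permutation p = 9e-05 over 100000 resamples of the libraries, adjusted p = 0.00036). The correlation was between -0.645 and -0.475 when each library was left out in turn, with a permutation p of 0.00139 or lower. Within file number 1, over 15 pairs, r was -0.375 (exact permutation p = 0.149), and within file number 2, over 10 pairs, it was -0.632 (exact permutation p = 0.142). The direction was the same within both, and neither passed a test with so few libraries. The pairs share libraries and are not independent, which the exchange of whole libraries takes into account.

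**Figure D2:**
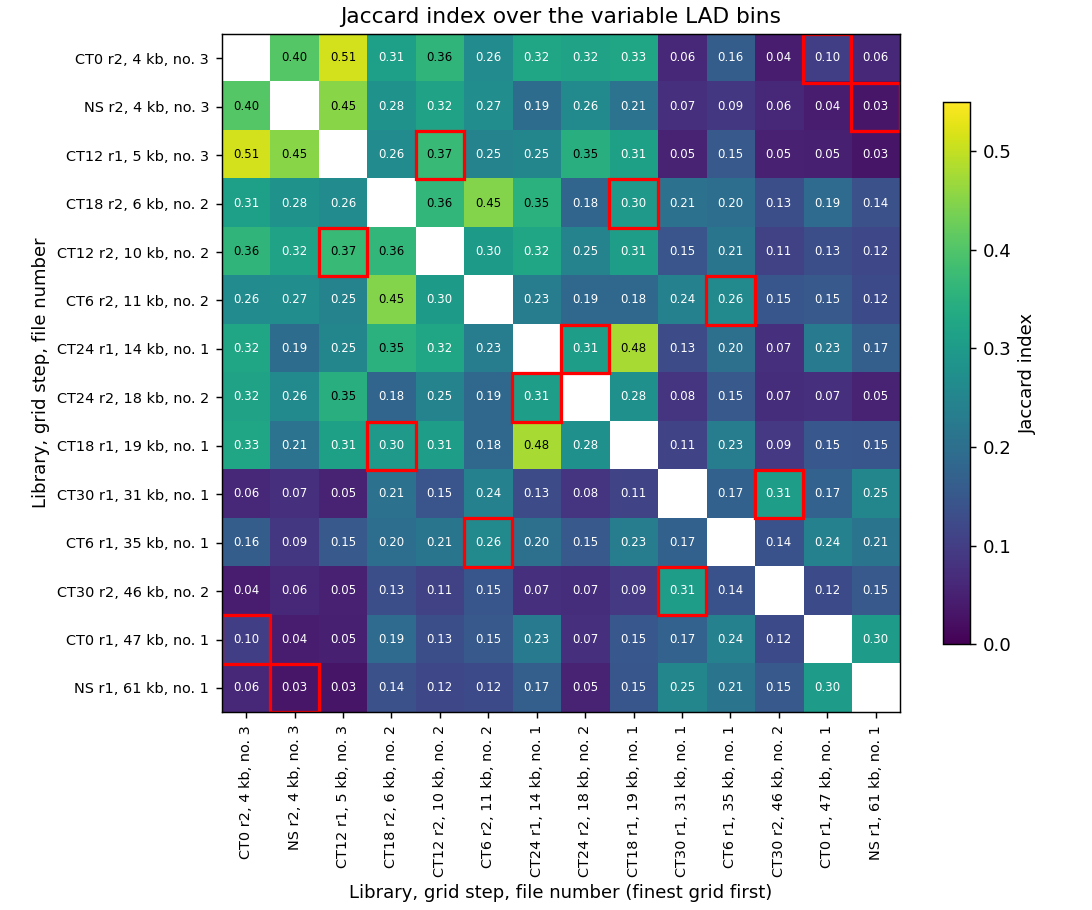
Jaccard index over the 3156 variable LAD bins for each pair of libraries, ordered on both axes from the finest grid step to the coarsest, with the file number after the grid step. Colour and number give the index, and red frames mark the 2 mice of 1 time point. CT0 replicate 2, NS replicate 2 and CT12 replicate 1, at the fine end, had indices of 0.405 to 0.512 with each other, and NS replicate 1 at the coarse end had 0.0338 with NS replicate 2.

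For 9 of 14 libraries the most similar library had the same file number, and for 4 of 14 it was the other mouse of the time point. The latter were CT6 replicate 1, CT12 replicate 2 and both CT30 mice. Far more pairs share a file number (28 of 91) than a time point (7 of 91), so the 2 counts do not rank these properties. CT18 replicate 1 and CT24 replicate 1, with grids of 19 and 14 kb, were each nearest to the other (Jaccard index 0.478). CT6 replicate 2 and CT18 replicate 2, with grids of 11 and 6 kb, were likewise nearest to each other (0.448). NS replicate 1 and CT0 replicate 1, with the coarsest grids of 61 and 47 kb, formed another such pair (0.305). Each of these 3 pairs joins different time points and a common file number.

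**Figure D3:**
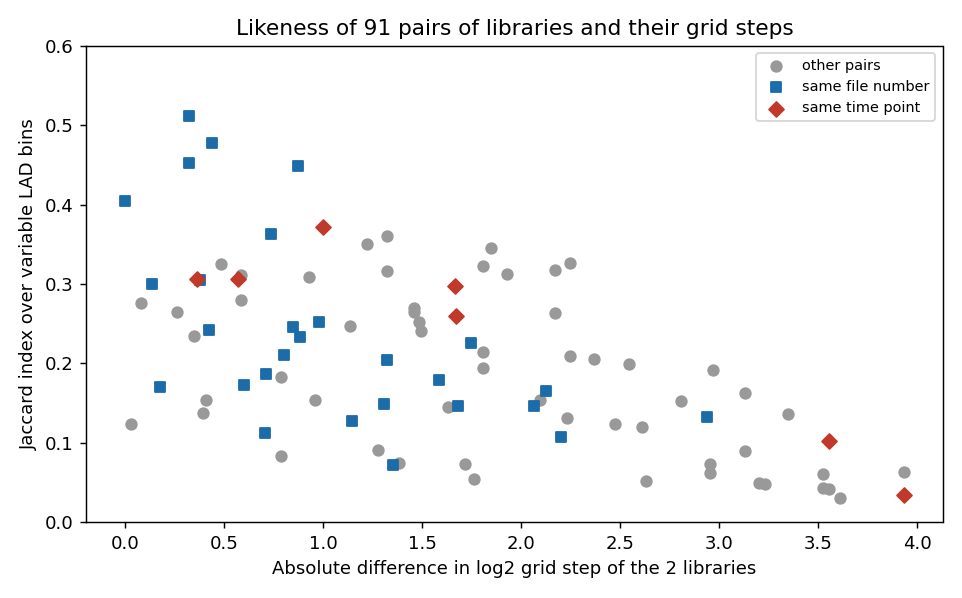
Jaccard index over variable LAD bins (y axis) against the absolute difference in log2 grid step (x axis) for 91 pairs of libraries. Blue squares share a file number, red diamonds a time point, and grey circles neither. The correlation was -0.592, and the 2 same-time pairs at the right are NS (0.0338) and CT0 (0.102).

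Libraries with coarser grids had fewer variable bins, but the relation did not pass after adjustment. With log2 grid step the number of bins held had Pearson r = -0.552 (permutation p = 0.0421, adjusted over 3 relations p = 0.0632) and Spearman rho = -0.561 (permutation p = 0.0390, adjusted p = 0.0585) over 14 libraries. Without the 2 libraries farthest from the median grid step, NS replicate 2 and CT0 replicate 2, r was -0.720 (permutation p = 0.00954). Within file number 1 it was -0.921 over 6 libraries (exact permutation p = 0.00833), with a rho of -0.829 that did not pass (exact permutation p = 0.0583). With at least 75 kb of a bin required it was -0.520 (permutation p = 0.0576), and with LADs of at least 500 kb only -0.444 (p = 0.113).

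The 3156 bins fell into 918 combinations of libraries, 455 of which were met in a single bin. The most common one was CT18 replicate 1 with CT24 replicate 1, with 109 bins (3.45%), followed by CT6 replicate 2 with CT18 replicate 2, with 64 bins. CT0 replicate 1 with CT18 replicate 2 came next, with 47. Of the 728 bins in 2 libraries, 76 (10.4%) were held by the 2 mice of 1 time point, and 373 (51.2%) by libraries with 1 file number. The 2 shares have unlike backgrounds, since 7 of the 91 pairs of libraries share a time point and 28 share a file number. Only the 7 libraries with the finest grids, up to 14 kb, held 16.7% of the variable bins, and only the 7 with grids of 18 kb or more held 6.18%. The other 77.1% were in libraries of both kinds. Each library with a fine grid held 820 to 1754 variable bins, and each with a coarse grid 356 to 1507. The 16.7% and 6.18% therefore have unlike backgrounds too.

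No time point had both its mice in a LAD for 1409 bins (44.6%), 1 time point did for 900 (28.5%), and 2 or more did for 847 (26.8%). Of the 900, 284 were shared by the CT18 mice, 182 by the CT12 mice, 176 by the CT24 mice, 125 by the CT6 mice, 76 by the CT30 mice, 51 by the CT0 mice and 6 by the NS mice. The most common pair of time points was CT12 and CT24, with 113 bins, followed by CT12 and CT18 with 90 and CT18 and CT24 with 75. Of the 2 pairs at the same hour of successive days, CT6 and CT30 had 74 and CT0 and CT24 had 17. From CT12 to CT18, with different mice at each, 249 bins were in neither mouse and then in both, and 66 in both and then in neither. From CT24 to CT30 the numbers were 159 and 480, while 28 bins were in all 4 of these mice. The grid steps were 14 and 18 kb at CT24 and 31 and 46 kb at CT30, and their part in these counts was not tested. Over all bins, both mice had 2586 in a LAD at NS, 3394 at CT0, 4351 at CT6 and 4973 at CT12. The numbers were 5167 at CT18, 4750 at CT24 and 3074 at CT30. Gains and losses between time points were not counted over all bins.

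The position of the variable bins with regard to the stable LADs was next examined. Of the variable bins, 11.3% touched a stable bin, 29.4% lay 2 to 5 bins away, 441 bins lay 6 to 10 bins away, and 45.3% lay over 1 Mb away. Of the bins in 1 library 66.6% lay over 1 Mb away, and of those in no library 92.9%. The bins next to a stable LAD were in a median of 7 libraries, those 2 to 5 bins away in 5, those 6 to 10 bins away in 3 and those over 1 Mb away in 4. Among bins in 2 libraries 1.10% touched a stable bin, with a median distance of 1.65 Mb, and among bins in 8 libraries 38.2% did, with a median of 0.2 Mb. A difference of this kind is in part set by the rule, since both the variable and the stable bins are defined by the number of libraries.

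A library can hold a variable bin in 3 ways. Its LAD may cover no stable bin at all (stand-alone), cover stable bins on 1 side of the variable bin (an extension), or cover stable bins on both sides (a bridge). Extensions were 50.9% of the 14496 cases, stand-alone LADs 36.8% and bridges 12.4%. The stand-alone share was lowest in CT18 replicate 1 (12.3%), CT6 replicate 1 (15.4%) and CT0 replicate 1 (18.0%). It was highest in NS replicate 2 (61.0%), CT6 replicate 2 (60.4%) and CT18 replicate 2 (57.4%). Mice of 1 time point thus differed widely, as at CT18 with 12.3% and 57.4%. Bridges were 30.3% of the variable bins in CT18 replicate 1 and 23.7% in CT24 replicate 1, and at most 19.3% in any other library.

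The stand-alone share was lower on coarser grids (Pearson r = -0.696, permutation p = 0.00886, adjusted p = 0.0266, and Spearman rho = -0.695, permutation p = 0.00808, adjusted p = 0.0242, over 14 libraries). Without NS replicate 2 and CT0 replicate 2, r was -0.585 (permutation p = 0.0476). The relation did not hold within file number 1, where r was 0.125 over 6 libraries (exact permutation p = 0.825). File numbers 2 and 3 had fewer than the 6 libraries required for a correlation. Within file number 2 the share was 57.4% at 6 kb, 39.6% at 10 kb, 60.4% at 11 kb, 21.6% at 18 kb and 37.6% at 46 kb.

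Neighbouring variable bins formed 456 runs with a median length of 0.5 Mb. Of these, 97 runs were 1 Mb or longer, and they held 48.8% of the variable bins. A stable bin bordered 283 runs on 1 side, 37 on both sides and 136 on neither. The last group held 38.6% of the variable bins.

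The longest run was chr12:17800001-24500000, at 6.7 Mb, and no stable bin lay within 10.8 Mb of it. Its 67 bins were 64 in NS replicate 1, 53 in CT0 replicate 1, 59 in CT6 replicate 1, 65 in CT6 replicate 2 and 43 in CT12 replicate 2. CT18 replicate 2 had 57 of them, CT30 replicate 1 had 66 and CT30 replicate 2 had 65. The other 6 libraries had none of these bins, so that CT6 and CT30 had the run in both mice, CT24 in neither, and the other time points in 1 mouse each. The 6 without it include the 3 libraries with file number 3. GC content was 44.8% and no base was undetermined. The run held 11 protein-coding start sites. Nearest its centre were Cpsf3, the endonuclease that cuts pre-mRNA before polyadenylation, Itgb1bp1, a binding protein of the integrin beta 1 tail, and Asap2, which activates the GTPase function of Arf proteins.

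Next in length was chr7:88100001-93100000 (5.0 Mb), stable on both sides. All 50 bins were in a LAD in CT18 replicate 1 and CT24 replicate 1. The other mice of these time points, CT18 replicate 2 and CT24 replicate 2, had 15 and 1. CT0 replicate 2 had 25 bins, CT12 replicate 2 had 21, NS replicate 2 had 19 and CT12 replicate 1 had 18, and the other 6 libraries had 0 to 4. The genes nearest the centre were Dlg2, which encodes a scaffold protein of synapses, and Tmem126b and Tmem126a, which encode mitochondrial membrane proteins. The 3 start sites were in a LAD only in the 2 libraries that held the whole run.

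The run chr4:69800001-74500000 (4.7 Mb) behaved alike. CT18 replicate 1 and CT24 replicate 1 each held all 47 bins, the other 12 libraries held 0 to 16, and stable bins bordered it on both sides. Tle1, a Groucho co-repressor of transcription, lay nearest the centre, with Gm11232 and Aldoart1, a sperm aldolase gene without introns. In both runs, 1 mouse at CT18 and 1 at CT24 with file number 1 covered the whole run.

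A different set of libraries held chr9:26400001-30700000 (4.3 Mb). CT0 replicate 1 and CT6 replicate 1 held all 43 bins, NS replicate 1 held 35, CT6 replicate 2 held 33, CT24 replicate 1 held 29, CT18 replicate 2 held 28 and CT30 replicate 1 held 18. CT12 replicate 2 held 6, CT0 replicate 2 held 5 and the other 5 none. A stable bin lay on 1 side. Opcml, an adhesion protein of the immunoglobulin family, spans over 1 Mb there and had its start site in a LAD in 8 libraries. Spata19 and Igsf9b, an adhesion protein of inhibitory synapses, followed.

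The remaining runs among the 10 longest were 2.2 to 3.0 Mb. At chr6:64600001-67600000, NS replicate 1 and CT18 replicate 1 held all 30 bins, and CT24 replicate 1 and CT30 replicate 1 held 23 each. CT18 replicate 2 held 10 and the other 9 libraries 0 to 4. All 4 leading libraries have file number 1. The genes named there were 4930544G11Rik and Ndnf, a secreted neurotrophic factor.

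At chr9:6800001-9700000, CT0 replicate 1, CT6 replicate 1 and CT18 replicate 1 held all 29 bins, again file number 1. CT24 replicate 1 held 13, CT6 replicate 2 held 10, and the others 0 to 9. Yap1, the effector of the Hippo pathway, which limits liver size, had its start site in a LAD in CT0 replicate 1, CT6 replicate 1, CT18 replicate 1 and CT24 replicate 1. Beside it lay Cep126, a centrosome protein, whose promoter is printed above, and Cfap300, a gene of motile cilia.

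The run at chr16:72400001-75000000 held a single start site, that of Robo2, the receptor of the Slit guidance proteins. All 26 bins were in CT18 replicate 1 and CT24 replicate 1, 21 in CT12 replicate 2, 20 in CT18 replicate 2, 15 in CT0 replicate 2, 13 in CT12 replicate 1 and 9 in NS replicate 2. CT24 replicate 2 had 3, CT6 replicate 2 had 2, and the others none, among them both CT30 mice. At chr3:73000001-75500000, CT6 replicate 1 held all 25 bins, CT12 replicate 1 and CT24 replicate 2 held 21 each, and CT6 replicate 2 held 18. NS replicate 2 and CT0 replicate 2 held 13 each and the other 8 libraries 0 to 4. Bche, butyrylcholinesterase, a plasma enzyme made by the liver, lay nearest the centre and was in a LAD in CT6 replicate 1, CT12 replicate 1 and CT24 replicate 2. Zbbx and Serpini2, a serpin, were named beside it.

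At chr7:50100001-52500000, CT12 replicate 2 and CT24 replicate 1 held all 24 bins, CT24 replicate 2 held 21, CT0 replicate 2 held 11, and the others 0 to 5. It was the 1 run of the 10 in which both CT24 mice held most bins. Ano5, an anoctamin of muscle and bone, Slc17a6, a vesicular glutamate transporter, and Gas2, an actin-binding protein, lay nearest the centre. At chr5:16300001-18500000, all 22 bins were in CT0 replicate 2, both CT12 mice, CT18 replicate 1 and CT24 replicate 1. CT18 replicate 2 held 12, CT24 replicate 2 held 9, NS replicate 2 held 8, CT6 replicate 2 held 1 and the other 5 none. Speer4f2, Speer4f1 and the guidance gene Sema3c were named there. On chromosomes 12 and 13, 2 other runs of 22 bins tied with it and are not described, since ties went by chromosome.

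**Figure D4:**
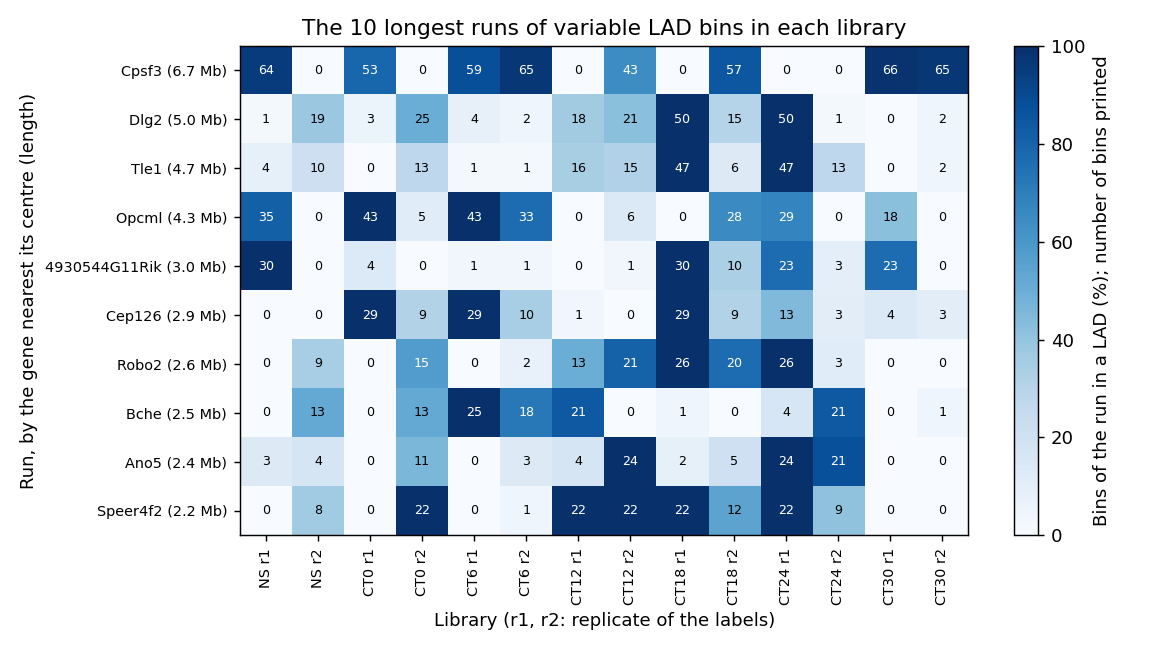
The 10 longest runs of variable LAD bins (rows, named by the gene nearest the centre, with the length) in the 14 libraries (columns, r1 and r2 for replicates). Numbers are bins in a LAD, and colour is their share of the run in percent. The Dlg2 and Tle1 runs are complete in CT18 replicate 1 and CT24 replicate 1, and the Cpsf3 run is empty in 6 libraries.

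Bins in both mice of 1 time point and in no other library were few. There were 38 such bins for CT18, 13 for CT24, 13 for CT30, 8 for CT6, 4 for CT12 and none for NS or CT0. The longest stretch of them, chr2:57400001-58400000 at CT18, was 1.0 Mb and lay 0.6 Mb from the nearest stable bin. It held the start sites of Galnt5, an enzyme that starts O-glycans, Ermn, a cytoskeletal protein of myelin, and Cytip, a protein of lymphocytes. At CT30, chr3:32800001-33800000 was of the same length but 9.5 Mb from a stable bin. Pex5l, Usp13, a deubiquitinase, and Ttc14 were its 3 genes.

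A second CT18 stretch, chr4:85000001-85800000 (0.8 Mb), held Adamtsl1 and Sh3gl2, a protein of synaptic vesicle uptake. The CT12 stretch chr1:106900001-107300000 (0.4 Mb) lay in a cluster of serpin genes, inhibitors of proteases. Serpinb3d, Serpinb3a and Serpinb13 were nearest its centre. At CT6, chr3:92400001-92800000 (0.4 Mb) held 25 start sites in the cluster of late cornified envelope genes of the skin, among them Lce6a, beside Smcp, a gene of sperm mitochondria, and 2210017I01Rik. The nearest stable bin was 16.0 Mb away.

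The genes of the variable bins were then counted by start site. The bins held 1560 protein-coding genes, which is 4.94 per Mb, against 11 per Mb in bins of no library, 5.07 in bins of 1 library, 3.99 in bins of 9 to 13 and 1.18 in bins of all 14. No start site was found in 72.6% of the variable bins. The median GC content of the variable bins was 39.4%, between 43.5% in bins of no library and 37.1% in bins of all 14. The median share of soft-masked repeats was 37.7%, against 28.2% and 42.8%. Promoters rich in CpG (at least 0.6 of the CG count expected from the bases, and GC of at least 50%, over 300 bases) were 25.1% of the 861 matched promoters of variable bins. They were 57.4% in bins of no library, 42.8% in bins of 1 library, 14.9% in bins of 9 to 13 and 15.9% in bins of all 14. Of the 5 promoters printed above, that of Cep126 met both limits. Gene density of the variable bins of a library did not go with its grid step (r = -0.0963, permutation p = 0.742).

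**Figure D5:**
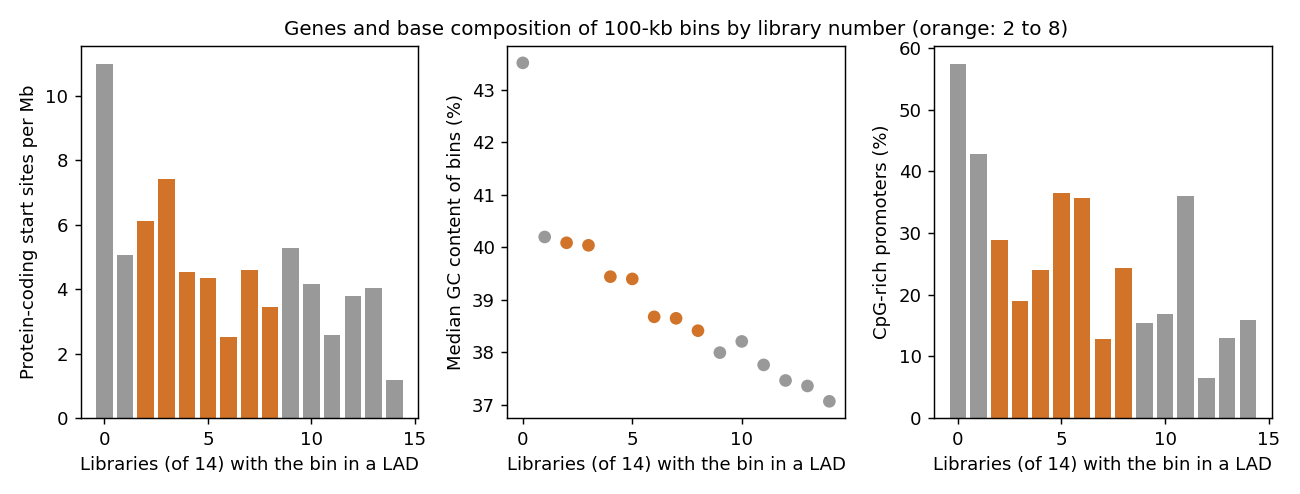
Protein-coding start sites per Mb (left), median GC content of the bins in percent (middle, axis not from 0) and CpG-rich promoters in percent of the promoters matched (right), by the number of libraries with the bin in a LAD (x axis, 0 to 14). Orange marks the variable bins. Median GC was 40.1% at 2 libraries and 38.4% at 8, and gene density was 6.11 and 3.44 per Mb with ups and downs between.

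Of all 20807 autosomal protein-coding genes, 7.50% lay in variable bins. The 25 liver genes (such as Alb and Apob), the 20 clock genes and 12 markers of other liver cells had none of their members there. All 25 liver genes and all 12 markers lay in bins of no library, as did 19 of the 20 clock genes. Most genes lay in such bins, 17225 of all 20807, and whether these lists differ from that background was not tested. The Hox genes (39) and the histone genes (67) had no member in variable bins either, and of 72 ribosomal protein genes Rps27a, in CT12 replicate 1 and CT18 replicate 1, was the 1 exception.

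Families that liver uses for xenobiotics were counted next. Of 100 cytochrome P450 genes 6 (6.00%) lay in variable bins, all on chromosome 19 in 2 libraries each. Cyp2c38, Cyp2c39 and Cyp2c40, drug and fatty acid oxidases, were in a LAD in NS replicate 2 and CT12 replicate 1, which both have file number 3. Of 63 conjugating transferases 6 (9.52%) lay there, such as Sult1c1 and Sult3a2, sulfotransferases, in 4 libraries each, and Gsto1, a glutathione transferase, in NS replicate 1 and CT0 replicate 1. Of 39 organic ion transporters none did.

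Clustered sensory and immune families followed, with shares from 8.57% to 35.9%. Of 1128 olfactory receptor genes, 246 (21.8%) lay in variable bins, in a median of 5 libraries, and 604 in stable bins. Olfr1271, Olfr1272 and Olfr142 were in 8 libraries each, with both mice of CT6, CT18 and CT30 among them. Of the vomeronasal type 1 receptors 50 of 208 (24.0%) were in variable bins, with Vmn1r179, Vmn1r180 and Vmn1r181 in 7 libraries. Of the type 2 receptors 34 of 119 (28.6%) were, with Vmn2r25 and Vmn2r26 in 7 libraries, 6.1 and 5.9 Mb from the nearest stable bin, and Vmn2r118 in 7 libraries, 0.2 Mb from one. Bitter taste receptors had 3 of 35 (8.57%), Tas2r103 and Tas2r140 in 8 libraries and Tas2r139 in 2.

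All 23 of the 64 defensin genes (35.9%) that lay in variable bins were on chromosome 8, in a median of 3 libraries. Defa24 and Defb1, antimicrobial peptides, were in 7 libraries, including both mice of CT6, CT18 and CT30. Killer lectin receptors, which natural killer cells use, had 7 of 26 (26.9%), all in 7 or 8 libraries, with Klra17, Klri1 and Klri2 in 8. Of 60 serpins 14 (23.3%) were in variable bins, in 2 or 3 libraries, such as Serpinb9f and Serpinb9g in NS replicate 2, CT6 replicate 2 and CT18 replicate 2. Keratins and keratin-associated proteins had 12 of 113 (10.6%), all on chromosome 16, with Krtap16-3, Krtap19-9b and Krtap20-2 in 7 libraries. Genes of 1 cluster share bins and LADs, so such counts are of a few regions rather than of separate genes.

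Among neuronal families, cadherins and protocadherins had 39 of 90 (43.3%) in variable bins, 34 of them on chromosome 18, and a median of 3 libraries. Pcdh15 and Pcdh20 were in 8 libraries and Cdh6 in 4. Synaptic adhesion proteins had 9 of 49 (18.4%), with Slitrk3 in 7 libraries, Flrt3 in 6 and Lrrtm3 in 5. GABA and glutamate receptors had 6 of 42 (14.3%). Gabrg3, a subunit of the GABA receptor, was in 7 libraries and Gabra5, another subunit, in 6. Potassium channels had 7 of 92 (7.61%), with Kcnh7 in 8 libraries, Kcnip4, which encodes a channel-interacting protein, in 7 and Kcnk9 in 3. Zinc finger genes had 33 of 385 (8.57%), with Zfp551 and Zfp606 in the same 8 libraries and Zfp616 in 7. The shares of the potassium channels, the zinc finger genes and the bitter taste receptors were near the 7.50% of all genes.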

How the data were processed

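The authors aligned LMNB1 ChIP-seq and input reads to mm10 (Bowtie), discarded duplicates (Picard), thinned ChIP and input to equal depth on each chromosome, and ran EDD per mouse with fixed GapPenalty and BinSize to obtain LADs. The deposited files give only the start and end of each LAD, with no count, score or signal, so no interval for counting error or filter on a score was possible, and replicates were not pooled. Inputs and RNA-seq were not analysed here.

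Bins, runs, Jaccard indices and permutation tests were computed in Python 3.11.15 with NumPy 2.4.6 and pandas 2.3.3. Only the tests of the Jaccard index by time point and by file number were first tried on simulated data. The simulated bins were independent of each other, unlike neighbouring bins of a LAD. Genes were GENCODE vM21 protein-coding genes, by start site. Promoters came from RefSeq within 1000 bases of that start (13566 of 20807 genes). No autosomal LAD ended beyond its chromosome. The 2845 LADs of all libraries include those on sex chromosomes, whose ends were not checked. P values measure the spread between mice.

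Named were the 10 longest runs (ties by chromosome, then start, which left out 2 runs as long as the last), the 5 longest stretches held by both mice of 1 time point alone, up to 3 genes nearest each centre, and up to 3 genes per family, by number of libraries and then name. Of the genes so named, 2 are not reported here. Sequences were taken for the gene nearest each of these 15 centres. Of the 15, 6 overlapped an exon and 4 had no RefSeq start near enough. This widened, after the data were seen, a rule for the first 5 runs. Members and lists were chosen with earlier results of these data known. Alternatives were other bin sizes, thresholds, tilings, LAD lengths, library sets and blocks.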

Additional observations from a re-analysis of the deposited data

How the results depend on the processing

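The number of variable LAD bins was 6347 with bins of 50 kb, 1593 with bins of 200 kb and 2027 with 3 to 7 libraries in place of 2 to 8. The first 2 span 317.35 and 318.6 Mb, close to the 315.6 Mb of the 100-kb bins, and 3 to 7 libraries span 202.7 Mb. Leaving out each library in turn gave 3156 to 3587 bins.

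The relation of bins held to grid step did not pass with at least 75 kb of a bin covered (r = -0.520) or with LADs of at least 500 kb (r = -0.444), and it ran from -0.753 to -0.491 over the leave-one-out values, without a pass in 4 of 14 (NS replicate 1, CT0 replicate 1 and both CT30 mice). The relation of gene density to grid step turned to 0.0264 over CT0 to CT30 alone and to 0.341 with all annotated genes, and ran from -0.457 to 0.189 over the leave-one-out values, positive only without CT6 replicate 1. No permutation p of it passed.

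The difference for mice of the same time point was 0.0702 over CT0 to CT30 and 0.0511 after a plane on grid steps. With the file number as a block, against only other pairs with different file numbers, it was 0.0562. All of these were past the threshold, and the leave-one-out values ran from 0.00794 to 0.0841. The difference for the same file number was 0.0150 over CT0 to CT30, 0.0238 after a plane on grid steps, neither past it, and 0.0181 to 0.0636 over the leave-one-out values. The F ratio between time points was 1.93 to 4.62 over the leave-one-out values and 1.11 to 3.52 over 12 other alternatives, none of which passed. The relation of likeness to grid step and that of the stand-alone share passed under each of the 9 other alternatives and 14 leave-one-out values run for them. The cause of these changes was not tested.

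For the time point after the replicate numbers of the labels, taken as a replicate block, the F ratio was 2.50 (exact permutation p = 0.176). The difference for mice of the same time point, against only other pairs with different replicate numbers, was 0.0514 (exact permutation p = 0.0879). Neither call changed. Correlations of deviations from the time point mean between same-numbered libraries ran from -0.231 to 0.492 (median 0.0732), with 8 of 21 over 0.1. For 12 of 14 libraries the best correlation was with their own number. The deviations of the 2 mice of a time point mirror each other, so both always give the same answer in this count. Whether the numbers pair the mice was not tested. Depth is unknown, and 2 mice per time point limit what any test can show.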
